A study of Mus musculus with 2 samples.

Results

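Oligodendrocyte precursor cells (OPCs) were picked out of scRNA-seq data on the cerebral cortex of mice, made of 1 control library and 1 library of white matter injury (WMI). A barcode, which marks the RNA caught with 1 cell, was kept when it held at least 1000 unique molecular identifiers (UMIs, each 1 counted RNA molecule), at least 500 genes and at most 10% mitochondrial UMIs. A kept barcode was called an OPC when at least 4 of 8 genes (Pdgfra, Lhfpl3, Cspg4, Stk32a, Cacng4, Megf11, Shc4 and Myt1) had a UMI, with at most 2 UMIs of the myelin genes Mog, Mobp and Mag, at most 2 of the neuronal genes Slc17a7, Gad1 and Gad2, and fewer than 3 of 6 cell-cycle genes detected. This rule found 1070 members among 17653 kept barcodes, 381 of 9540 in the control library and 689 of 8113 in the WMI library.

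Per the labels, both groups were C57BL/6 mice sampled at 2 weeks of age. In the WMI group the right common carotid artery was ligated on postnatal day 7, with 1 h of hypoxia, and the ligated cortex was taken on day 14. The control library came from the cortex of the same side of control animals. The study's methods give younger ages and another length of hypoxia, and dissociated cells where the labels describe nuclei, and state that several replicates of each group were integrated. The labels name no animals, sexes or pools, and each group had 1 library among those analysed here, with no map from cells to replicates, so no difference below has a replicate check or a test. All intervals are 95% intervals that cover counting error only, exact for levels, ratios and shares and approximate for differences of shares, and injury cannot be told apart from any other difference between the 2 libraries.

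OPCs are the dividing glial cells of the brain that become oligodendrocytes (OLs), the cells that wrap axons in myelin. They are recognised by Pdgfra, the receptor for platelet-derived growth factor, and by the proteoglycan NG2, the product of Cspg4. As an OPC commits to becoming an OL it loses these genes, passes through a premyelinating stage marked by Gpr17, Bcas1 and Enpp6, and then switches on myelin genes. The transcription factors Olig1, Olig2, Sox10, Nkx2-2, Tcf7l2 and Myrf drive these steps, and Bmp, Notch and Wnt signals delay them.

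The 8 genes that chose the cells, given as a description, together made up 5824 CPM (UMIs per 1000000 UMIs of the summed cells) in control and 5295 CPM in WMI members, against 278 and 371 in excitatory neurons of the same libraries. Lhfpl3, a membrane protein gene of the OPC, gave the most UMIs among them, 8987 in control and 16356 in WMI members. Sox10, which the rule did not use, had 122 CPM in control members and 4.34 in control excitatory neurons, and Olig1 had 24.2 and 7.32. Sox10 and Olig1 mark the whole OL lineage, and Sox10 was higher still in control mature OLs (238 CPM), so that they place the members in the lineage and leave the OPC stage to the rule genes. The UMIs of the 8 genes had a median of 67.6 per 10000 UMIs of a cell in control and 61.7 in WMI members, with a tail of sparse cells. Below 25 per 10000 lay 77 control (20.2%) and 158 WMI members (22.9%), which were deeper (median 8719 and 8038 UMIs) and held a median of 4 rule genes. At the threshold, members with 4 of the 8 genes had a median of 12.4 per 10000 in control and 22.2 in WMI, and the 317 control and 572 WMI barcodes just outside, with 3 of the 8, had 7.74 and 9.25. At least 4 of 8 microglia genes were detected in 8 control members (2.10%) and in 155 WMI members (22.5%).

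**Figure D1:**
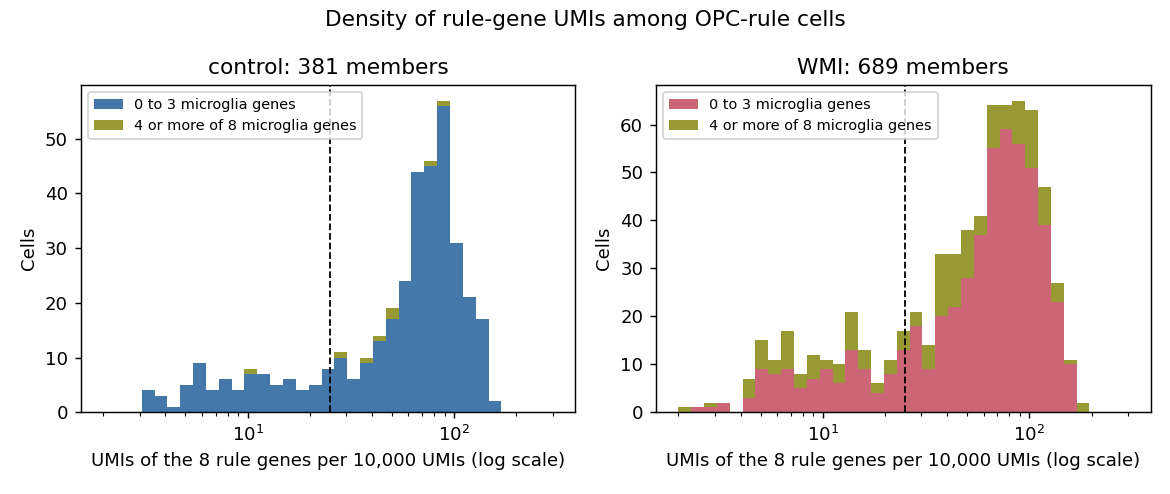
Number of member cells (vertical axis) by UMIs of the 8 rule genes per 10000 UMIs (horizontal axis, log scale), control at left and WMI at right, with cells holding 4 or more of 8 microglia genes in olive. The dashed line at 25 separates the main peak from a tail of 77 control and 158 WMI cells, and the olive cells number 8 in control and 155 in WMI.

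The main ratios below are therefore also given for the members with at least 25 rule-gene UMIs per 10000 and at most 3 microglia genes, called rule-dense OPCs, a choice made after seeing the data. These were 297 control cells (78.0% of the members) and 434 WMI cells (63.0%), with medians of 76.7 and 75.05 rule-gene UMIs per 10000. Median depth was 5345 UMIs per control member (2560 to 19461) and 5086 per WMI member (1480 to 35136), with summed totals of 2397657 and 4439147 UMIs. In rule-dense OPCs the medians were 5062 and 4492 UMIs. No barcode was shared between control and WMI members, and 34 were shared among all kept barcodes.

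OPCs made up 3.99% of kept control barcodes (95% Clopper-Pearson interval 3.61% to 4.41%) and 8.49% of kept WMI barcodes (7.89% to 9.12%). The rule-dense OPCs made up 3.11% (2.77% to 3.48%) and 5.35% (4.87% to 5.86%). With Xist-positive members left out of the numerator alone, the difference of 4.50 percentage points became -1.28, and -1.30 in rule-dense OPCs. Such a step can only lower the WMI share, since control members held no Xist. More OPCs and fewer cells of other types cannot be told apart in a share. In the WMI library microglia also took a larger share, 16.1% against 3.55%, as did premyelinating OLs, 13.2% against 3.22%, while excitatory neurons took 14.5% against 16.2%. Both classes were called by at least 4 of 8 marker genes, which other WMI cells also held more often. Microglia genes reached 4 in 2.98% of control and 29.0% of WMI excitatory neurons, and premyelinating genes in 5.45% and 22.6%. Of premyelinating OLs, 10.1% and 37.9% held 4 or more microglia genes. The part of such RNA in these shares was not tested.

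Several measures set the WMI library apart in every cell class compared, and their part in the ratios below was not tested. Mitochondrial UMIs had a median of 0.0685% in control and 0.740% in WMI members, and 2 control and 265 WMI members exceeded 1%. Xist, the RNA that silences an X chromosome in female cells, had no UMI in the 381 control members and 3447 UMIs in 469 of the 689 WMI members, at least 621-fold higher. Xist had 5 UMIs in all kept control barcodes. UMIs of the Y-linked genes Ddx3y, Uty, Kdm5d and Eif2s3y were found in 312 control (81.9%) and 410 WMI members (59.5%), and 247 WMI members held both. Thus the libraries differed in the sex of their cells, and sex and injury cannot be told apart in a comparison of all members. Among rule-dense OPCs, 287 of 434 WMI cells held Xist and 147 did not.

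RNA of activated myeloid cells was the other large difference. The 10 activated myeloid genes summed to 184 CPM in control members (167 to 201) and 1349 in WMI members (1315 to 1384), with Apoe the most abundant in both and Lyz2 at 0 in control. The 8 microglia genes summed to 182 and 617 CPM, with none at 0. Excitatory neurons, of which these RNAs are not typical, showed 118 and 788 for the activated myeloid list and 125 and 324 for the microglia list. In rule-dense OPCs the activated myeloid list stood at 170 and 1340, and the microglia list at 164 and 443. The rule-dense OPCs were chosen in part by a limit on the number of these same microglia genes detected. Their microglia levels therefore depend on that choice and are given as a description. The 8 astrocyte genes stood at 583 and 622 in all members, and the 6 endothelial genes at 5.42 and 11.3, led by Pecam1, with Ly6c1 at 0 in both. The 7 mural and fibroblast genes stood at 33.8 and 34.02, led by Col1a2 and Dcn, with Lum at 0 in WMI, but at 13.8 and 35.1 in rule-dense OPCs (log2 ratio 1.34, 0.66 to 2.08). The 8 mature OL genes stood at 372 and 439, with Ermn at 0 in both, and the 6 cell-cycle genes of the rule at 21.3 and 25.5, led by Mki67. RNA of excitatory neurons went the other way. The 8 excitatory neuron genes, led by Camk2a, fell from 1084 to 863 CPM in all members and from 872 to 567 in rule-dense OPCs, as against 2160 and 1925 in excitatory neurons. The 8 inhibitory neuron genes stood at 826 and 708 in members, but most of these UMIs were of Adarb2, which stood at 736 and 628 CPM in members, 915 and 765 in rule-dense OPCs and 156 and 140 in excitatory neurons. The part of these RNAs in any ratio below was not tested.

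Genes were compared as UMIs summed over the members of a library, per 1000000 UMIs of those members, for 7966 genes whose UMIs in the members came to 100 or more. The median log2 ratio of WMI over control was 0.05, and the 5% and 95% quantiles were -0.44 and 0.66. Past 1.5-fold, a threshold of size and not of a test, 509 genes (6.39%) were higher and 186 (2.33%) lower in WMI members. In rule-dense OPCs 669 of the same genes (8.4%) were higher and 375 (4.71%) lower. All 10 mitochondrial genes tested were higher, by log2 ratios of 1.39 to 3.59, with mt-Cytb rising from 861 to 12861 UMIs, and their median of 2.86 compared with 2.13 in premyelinating OLs, 1.76 in microglia, 1.65 in excitatory neurons, 0.88 in astrocytes and 0.45 in mature OLs. Of 76 ribosomal protein genes 38 were past 1.5-fold higher and none lower, with a median log2 ratio of 0.60 in members, 0.63 in premyelinating OLs and 0.24 in excitatory neurons.

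**Figure D2:**
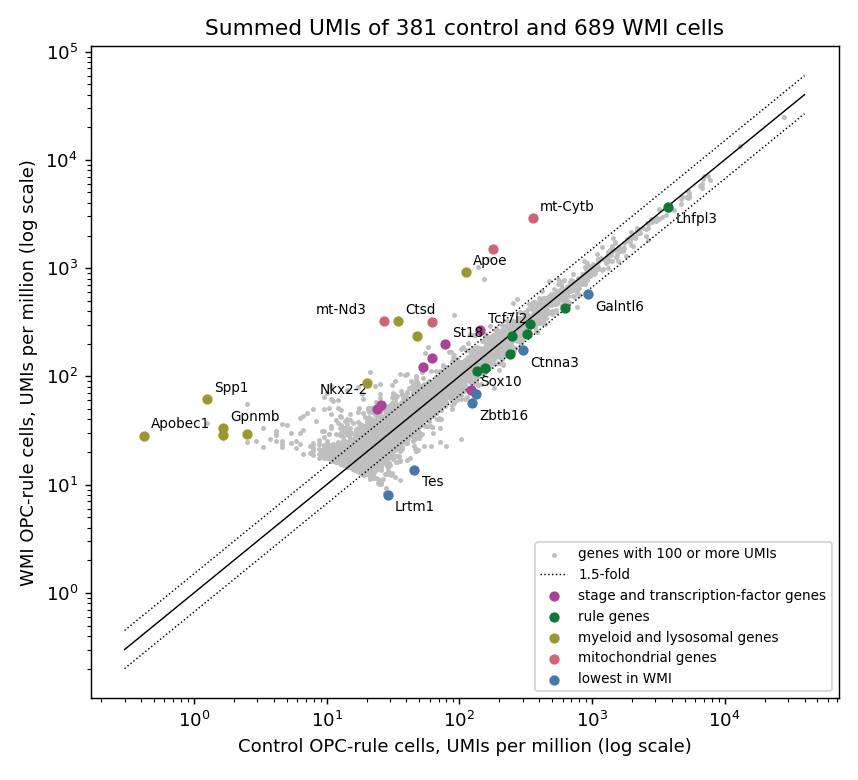
Each grey point is a gene with at least 100 UMIs, by its CPM in control (horizontal) and WMI (vertical) OPC-rule cells, both on log scales, with the line of equality and dotted lines at 1.5-fold. Myeloid, lysosomal and mitochondrial genes lie far above the line, the rule genes between the 1.5-fold lines, and stage genes such as St18 and Tcf7l2 above it.

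The 12 genes ranked highest were led by RNAs of macrophages and of reactive glia. Spp1, which encodes osteopontin, had 3 UMIs in control and 272 in WMI members (log2 ratio 5.61, 4.05 to 7.90). Lyz2, the lysozyme gene of macrophages, had no control UMI and 100 WMI UMIs, at least 18-fold higher against a floor of 3 UMIs. Apobec1, a cytidine deaminase, had 1 and 126 UMIs (6.09, 3.58 to 11.40), and Gpnmb, a glycoprotein of lipid-laden macrophages, had 4 and 148 (4.32, 2.93 to 6.22). Apoe, the main lipid carrier of the brain, had 270 and 4094 UMIs (3.03, 2.86 to 3.22), and the lysosomal protease gene Ctsd had 83 and 1440 (3.23, 2.91 to 3.57). Gfap, the filament protein of astrocytes, had 6 and 246 UMIs. Myo1f, Stab1, Arhgap45, Anxa3 and Mpeg1, most of them known from leukocytes, had 3 to 6 UMIs in control and 120 to 164 in WMI members. These genes were also higher in WMI excitatory neurons, with log2 values of 3.04 for Apoe, 2.86 for Ctsd and 3.64 for Gfap. For Spp1 and Gpnmb the neuronal ratios had wide intervals, 6.50 to 11.41 and 6.03 to 13.82, that overlapped those of the members. Of the 12 genes, 10 were also among the 12 highest in rule-dense OPCs, where Apoe again had a log2 ratio of 3.06.

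**Figure D3:**
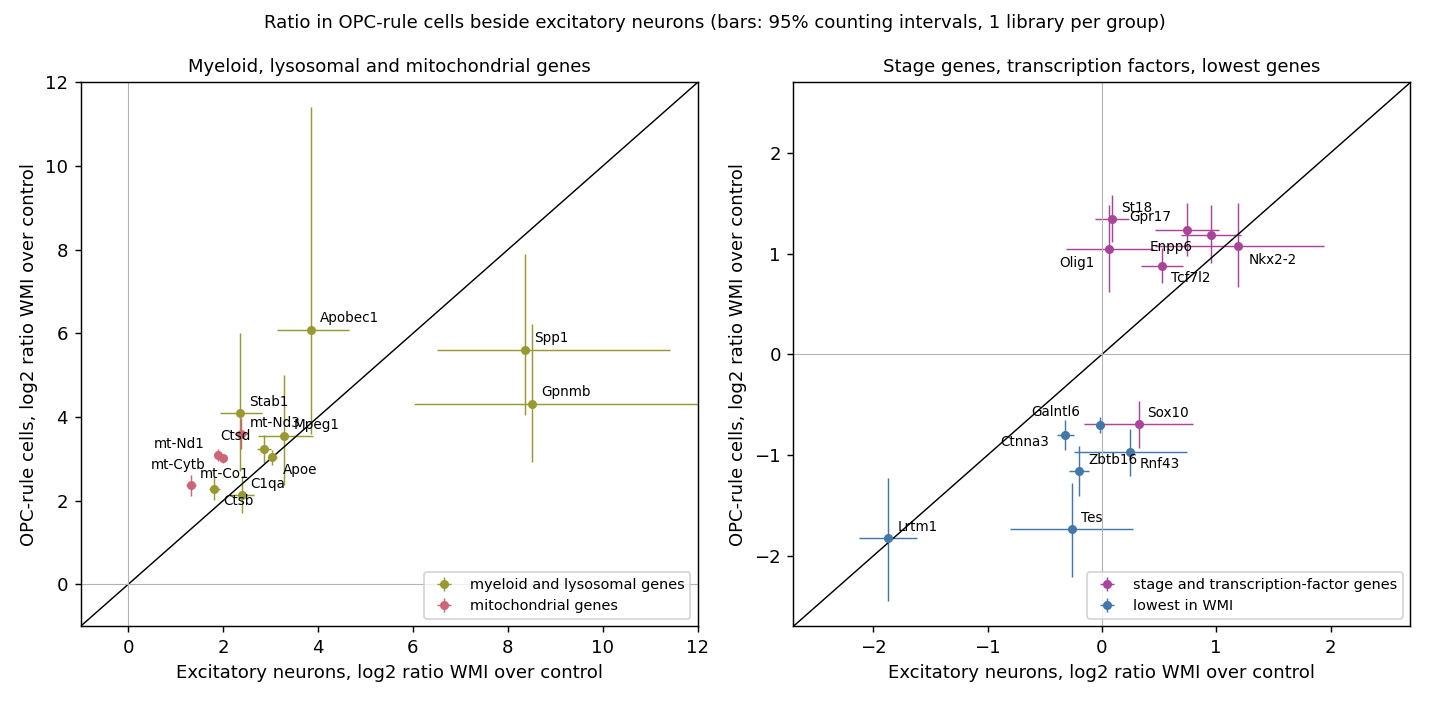
log2 ratio of WMI over control in OPC-rule cells (vertical) against the ratio in excitatory neurons of the same libraries (horizontal), with 95% counting intervals and the line of equality. At left, Apoe at 3.03 and 3.04 lies on the line, and at right, St18 at 1.35 against 0.09 and Zbtb16 at -1.16 against -0.20 lie away from it.

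Transcription factors of the OL lineage were the list with the largest number of members past 1.5-fold, though not the largest share. Of 36 listed genes 28 had enough UMIs, of which 6 (21.4%, against 6.39% of all genes tested) were higher and 1 (3.57%, against 2.33%) was lower in WMI OPCs, with a median log2 ratio of 0.21 in all members, 0.28 in rule-dense OPCs and 0.22 in excitatory neurons. The most abundant, Tcf4, stood at 1928 and 1868 CPM. St18, a zinc-finger factor, had 187 UMIs in control and 880 in WMI members, 78.0 against 198 CPM, a log2 ratio of 1.35 (1.12 to 1.58). Nkx2-2, a homeodomain factor that promotes OL differentiation, had 62 and 242 UMIs, 25.9 against 54.5 CPM (1.08, 0.67 to 1.5). Olig1, a basic helix-loop-helix factor of the lineage, had 58 and 221 UMIs, 24.2 against 49.8 CPM (1.04, 0.62 to 1.48). Tcf7l2, a factor of the Wnt pathway needed for OL maturation, had 346 and 1180 UMIs, 144 against 266 CPM (0.88, 0.71 to 1.06). The 4 ratios were larger in rule-dense OPCs, at log2 values of 1.93, 1.35, 1.16 and 1.12 in the same order. In the 125 control and 175 WMI members with fewer than 3 premyelinating genes, St18 stood at 42.9 (29.9 to 59.7) and 31.5 CPM (21.4 to 44.7), on 35 and 31 UMIs, with intervals that overlapped. In the same cells Nkx2-2 stood at 4.90 (1.34 to 12.6) and 16.2 CPM (9.28 to 26.4), on 4 and 16 UMIs, again with overlap. Sox4 and Sox11 were the others past the threshold, at 0.59 and 0.63. In rule-dense OPCs Sox4, at 0.58, was not past it and Olig2, at 0.72, was. In all members Olig2 stood at 0.47 and Myrf, which turns on myelin genes, at 0.26.

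The single gene of this list past 1.5-fold in the other direction was Sox10, which keeps OL-lineage identity from the precursor onwards. It had 293 UMIs in control and 335 in WMI members, 122 against 75.5 CPM (log2 ratio -0.70, -0.93 to -0.46), and -0.59 in rule-dense OPCs. After each cell was thinned to 1000 UMIs, a Sox10 UMI was found in 11.3% of control and 6.82% of WMI members, a difference of -4.46 percentage points (-8.49 to -0.78), against 0.52% and 0.60% of excitatory neurons. Unthinned, the shares were 50.7% and 32.8% of members and 4.02% and 6.38% of excitatory neurons. The same measure for Tcf7l2 gave 12.3% and 21.5% of members (difference 9.14 points, 4.35 to 13.7) and 1.82% and 3.15% of excitatory neurons, and for Nkx2-2 1.84% and 5.37% of members (3.53 points, 1.06 to 5.77) and 0.26% and 0.43% of neurons. Unthinned shares were 39.9% and 54.1% for Tcf7l2 and 12.6% and 22.5% for Nkx2-2. In excitatory neurons, which were deeper (median 10054 and 10862 UMIs), they were 12.5% and 24.8% for Tcf7l2 and 1.43% and 3.57% for Nkx2-2. A St18 UMI was found in 4.72% and 10.4% of thinned members and in 4.09% and 4.43% of thinned neurons, so that the control members were near the neuronal share. Unthinned, it was found in 19.9% and 25.5% of members and in 20.2% and 25.4% of the deeper neurons, near each other in both libraries. For Olig1 the interval of the difference held 0 at 1000 UMIs (1.09 points, -1.66 to 3.50), but the difference was 5.10 points (1.76 to 8.17) at 2000 UMIs and 3.65 (0.24 to 6.87) in rule-dense OPCs at 1000. Olig2 went the other way, with 2.95 points (0.54 to 5.12) at 1000 UMIs and 1.35 (-2.13 to 4.52) at 2000. Thinning was a random draw, made apart for all members and for rule-dense OPCs. At 1000 UMIs 48 control rule-dense OPCs held Sox10, against 43 of all control members, which include them. The part of the draw in these contrasts was not tested. Unthinned, Olig1 was found in 12.9% and 25.5% of members.

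Genes of the premyelinating stage moved unequally. The 8 listed genes, all detected, summed to 1558 CPM in control (1509 to 1609) and 2067 in WMI members (2025 to 2110), led by Bcas1 in both, a log2 ratio of 0.41 (0.35 to 0.46). The ratio of the list was 0.50 (0.44 to 0.56) in excitatory neurons, at 244 and 346 CPM, and 1.29 (1.22 to 1.36) in mature OLs. Enpp6, a choline phosphodiesterase of newly forming OLs, had 128 and 540 UMIs (log2 ratio 1.19, 0.91 to 1.48), and 2.36 in rule-dense OPCs. Gpr17, a receptor of committed precursors, had 150 and 654 UMIs (1.24, 0.98 to 1.5), and 1.49 in rule-dense OPCs. With Tcf7l2, these were the 3 of 8 past 1.5-fold higher, against 6.39% of all genes tested, and Bcas1 and Tns3 stood at 0.32 each, Itpr2 at 0.11, Rras2 at 0.09 and Cemip2 at 0.06. In premyelinating OLs, a separate class of 307 control and 1074 WMI cells, St18 had a log2 ratio of -0.08, Tcf7l2 of -0.26 and Enpp6 of 0.12, but these cells were chosen by Tcf7l2 and Enpp6 among others. Nkx2-2, which is not among the 8 listed genes, was higher in WMI premyelinating OLs, on 46 control and 316 WMI UMIs. It stood at 20.985 CPM (15.36 to 27.99) in control and 44.0015 (39.28 to 49.13) in WMI premyelinating OLs. In mature OLs Tcf7l2 rose from 553 to 1805 CPM (log2 ratio 1.71, 1.55 to 1.87), a larger ratio than in OPCs, and in astrocytes St18 stood at 24.9 and 45.0 CPM (0.85, 0.24 to 1.48). Excitatory neurons showed 0.09 for St18, 0.53 for Tcf7l2, 0.95 for Enpp6, 0.74 for Gpr17 and 1.19 for Nkx2-2, at levels of 3.39 to 49.6 CPM in WMI. Within the WMI library, Gpr17 stood at 206 CPM in rule-dense OPCs with a Xist UMI and 185 in those without, St18 at 232 and 209, Tcf7l2 at 368 and 251, and Bmp4 at 76.9 and 35.0. Control rule-dense OPCs stood at 70.9, 58.9, 152 and 27.1 in the same order of genes.

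**Figure D4:**
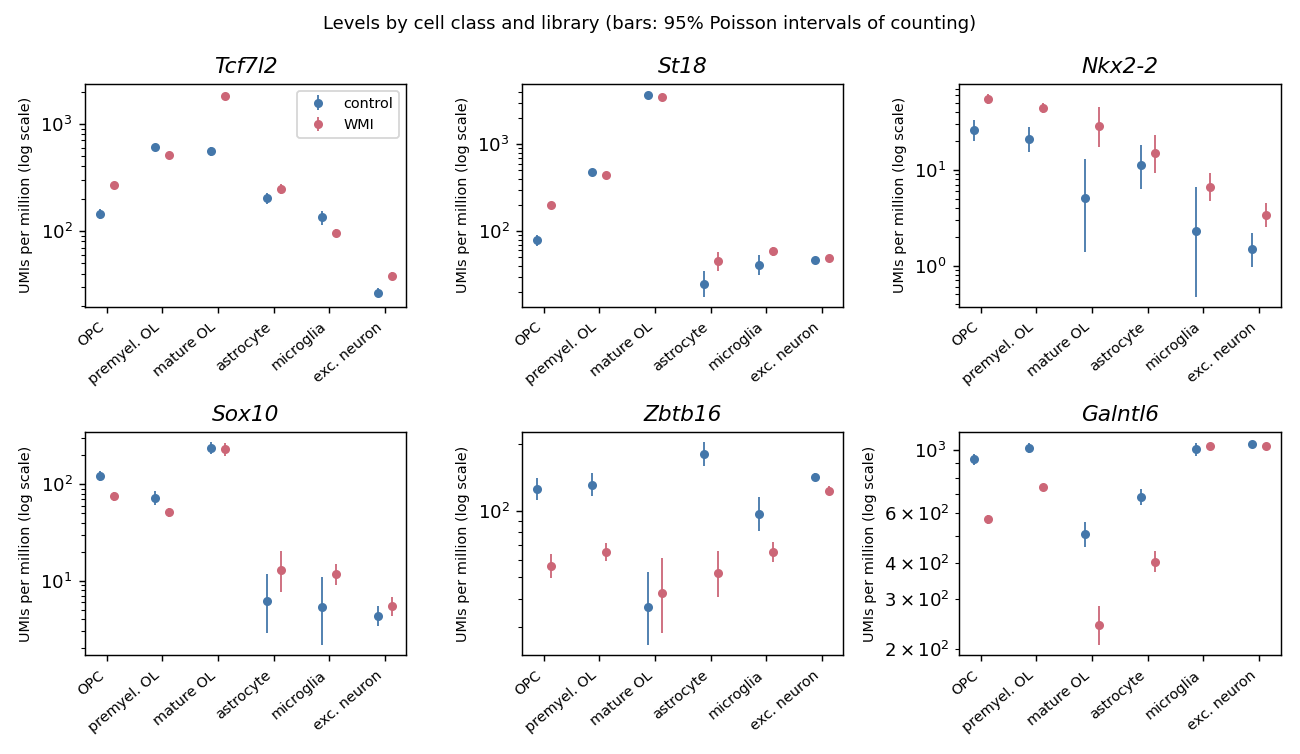
CPM (vertical axes, log scales) of 6 genes in 6 cell classes (horizontal), control in blue and WMI in red, with 95% Poisson intervals. With intervals that did not overlap, Tcf7l2 was higher in WMI than in control OPCs, mature OLs and excitatory neurons, and St18 in OPCs and astrocytes. Neither was higher in premyelinating OLs. By the same criterion Nkx2-2 was higher in WMI in OPCs, premyelinating OLs, mature OLs and excitatory neurons, and Sox10 was lower in OPCs and premyelinating OLs.

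The starts of Enpp6, Nkx2-2 and Tcf7l2 are shown as those of the higher stage genes whose start is in the table of promoters used here, to set them beside the Sox family genes that moved in both directions. Each sequence runs 5′ to 3′ from 250 bases before to 50 bases after the start, from RefSeq on GRCm38.p6, with the letters ACAAT, the core of Sox sites, in capitals on either strand. Enpp6 lies at chr8:46986637-46986936 (+), Nkx2-2 at chr2:147186353-147186652 (-) and Tcf7l2, the first of 2 listed starts, at chr19:55741560-55741859 (+).
Enpp6: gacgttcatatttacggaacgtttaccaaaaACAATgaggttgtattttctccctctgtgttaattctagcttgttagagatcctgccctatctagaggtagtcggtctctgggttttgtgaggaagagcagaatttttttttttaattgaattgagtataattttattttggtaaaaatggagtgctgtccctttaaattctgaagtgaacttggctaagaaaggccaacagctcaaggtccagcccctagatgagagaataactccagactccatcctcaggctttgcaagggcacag
Nkx2-2: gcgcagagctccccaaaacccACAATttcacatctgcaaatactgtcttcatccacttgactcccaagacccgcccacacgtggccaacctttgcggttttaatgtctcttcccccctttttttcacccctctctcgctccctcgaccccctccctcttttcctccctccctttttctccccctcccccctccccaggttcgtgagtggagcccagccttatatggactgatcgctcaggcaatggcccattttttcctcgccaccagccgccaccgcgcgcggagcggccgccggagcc
Tcf7l2: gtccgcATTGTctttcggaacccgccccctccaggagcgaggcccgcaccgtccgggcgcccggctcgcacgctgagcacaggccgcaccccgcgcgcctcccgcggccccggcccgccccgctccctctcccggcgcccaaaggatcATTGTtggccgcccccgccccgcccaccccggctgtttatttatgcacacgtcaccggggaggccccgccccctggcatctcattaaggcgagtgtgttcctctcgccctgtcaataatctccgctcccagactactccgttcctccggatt
The core occurred 1 time in Enpp6, 1 time in Nkx2-2 and 2 times in Tcf7l2, and 31.0% of 32851 promoters of this length hold it. The E-box CAGCTG, which basic helix-loop-helix factors bind, was in none of the 3 windows and in 16.3% of all promoters. St18, Olig1, Sox10, Gpr17 and Zbtb16 have no sequence shown.

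OPC identity genes outside the rule had a median near that of all genes. All 25 had enough UMIs, with a median log2 ratio of -0.06 in all members and 0.08 in rule-dense OPCs, 1 higher (4.00%, Olig1, against 6.39% of all genes tested) and 3 lower (12%, against 2.33%). In rule-dense OPCs the balance turned, with 4 higher (Arhgap24, Olig1, Olig2 and Traf4, against 8.4% of all genes) and 2 lower (Rnf43 and Sox10, against 4.71%). The most abundant, Lrrc4c, stood at 4807 and 4514 CPM. Beside Sox10, the lower ones were Rnf43 and Sema3d. Rnf43, a ubiquitin ligase that removes Wnt receptors from the cell surface, had 320 and 302 UMIs, 133 against 68.0 CPM (-0.97, -1.20 to -0.74), and -0.75 in rule-dense OPCs. It shares its strand with an overlapping noncoding gene, so that its UMIs may be split. Sema3d, a secreted guidance cue, had 485 and 584 UMIs, 202 against 132 CPM (-0.62, -0.80 to -0.44), and -0.47 in rule-dense OPCs. In excitatory neurons Rnf43 stood at 4.17 and 4.95 CPM. Among the 8 rule genes, as a description, Stk32a had a log2 ratio of -0.57, Cacng4 of -0.56, Pdgfra of -0.40, Cspg4 of -0.39, Shc4 of -0.26, Megf11 of -0.17, Myt1 of -0.07 and Lhfpl3 of -0.02.

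The genes ranked lowest in WMI members were of several kinds. Zbtb16, a transcriptional repressor, had 301 UMIs in control and 250 in WMI members, 126 against 56.3 CPM (-1.16, -1.40 to -0.91). Its log2 ratio was -1.33 in rule-dense OPCs, -1.01 in premyelinating OLs, -1.79 in astrocytes and -0.20 in excitatory neurons. A Zbtb16 UMI was found in 11.3% of control and 5.08% of WMI members at 1000 UMIs (43.6% and 24.2% unthinned), against 12.2% and 11.2% of excitatory neurons, which hold this RNA at 141 and 123 CPM and so give no background for it. Galntl6, a gene of the GalNAc transferase family, had 2226 and 2536 UMIs, 928 against 571 CPM (-0.70, -0.78 to -0.62), and -0.97 in rule-dense OPCs. Excitatory neurons, which also hold this RNA, stood at 1052 and 1036 and microglia showed a log2 ratio of 0.04, while astrocytes showed -0.76, premyelinating OLs -0.46 and mature OLs -1.06. Its share at 1000 UMIs was 51.7% and 39.6% of members (96.9% and 87.7% unthinned), and 53.4% and 45.4% of neurons. Ctnna3, an alpha-catenin of cell junctions, had 726 and 770 UMIs (-0.80, -0.95 to -0.66). Tes, a focal adhesion protein gene, had 110 and 61 UMIs (-1.74, -2.22 to -1.28), with -0.26 in neurons, and Lrtm1, a leucine-rich repeat membrane protein gene, had 69 and 36 (-1.83, -2.45 to -1.23), with -1.87 in neurons. Fgf1, a fibroblast growth factor, had 71 and 56 UMIs. Rgs4, Pcp4, Agrp, AC154538.1 and Mobp, with log2 ratios of -1.29 to -0.87, and Rnf43, given above, completed the 12. Mobp was capped by the rule, and the gene models of Pcp4 and Agrp overlap others on their strand. Of the 12, 6 were also among the 12 lowest in rule-dense OPCs.

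Receptors and channels through which OPCs sense growth factors and transmitters were compared next. Among 23 growth factor and neurotrophin receptors tested, 3 (13.0%, against 6.39% of all genes tested) were higher and none lower, with a median of 0.13. The most abundant, Erbb4, a neuregulin receptor, stood at 2281 and 2255 CPM. Tgfbr2, the ligand-binding receptor of transforming growth factor beta, had 10 and 138 UMIs (2.90, 1.98 to 3.99), with 1.82 in excitatory neurons. Tgfbr1, its partner, had 127 and 427 UMIs (0.86, 0.57 to 1.16), but 0.24 in rule-dense OPCs, and Il6st, the shared receptor of the interleukin 6 family, had 51 and 174 (0.88, 0.42 to 1.36). Bmpr1b, at 0.25 in all members, was past 1.5-fold higher in rule-dense OPCs, at 1.04. Of 21 glutamate receptor subunits none was past 1.5-fold in either direction, with ratios of -0.48 to 0.24 and a median of -0.06. Gria2, which sets the calcium permeability of AMPA receptors, marked the lower end with 4338 and 5750 UMIs. Of 11 GABA-A receptor subunits only Gabra5 (9.09%, near the 6.39% of all genes) was past 1.5-fold, with 88 and 259 UMIs (0.67, 0.31 to 1.03), and it stood at 0.27 in rule-dense OPCs. There 2 of the glutamate receptor genes and 1 of the GABA-A receptor genes were past 1.5-fold lower, against 4.71% of all genes tested. Of 27 voltage-gated and potassium channel genes only Kcna1 (3.70%, against 2.33% of all genes) was past it, lower, with 74 and 89 UMIs (-0.62, -1.08 to -0.16). The channel list had a median of -0.14 in all members and -0.26 in rule-dense OPCs, led by Kcnip4 at -0.31 and -0.79, a gene with 11532 CPM in control excitatory neurons against 6803 in control members. The part of excitatory neuron RNA in the Kcnip4 ratios was not tested.

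**Figure D5:**
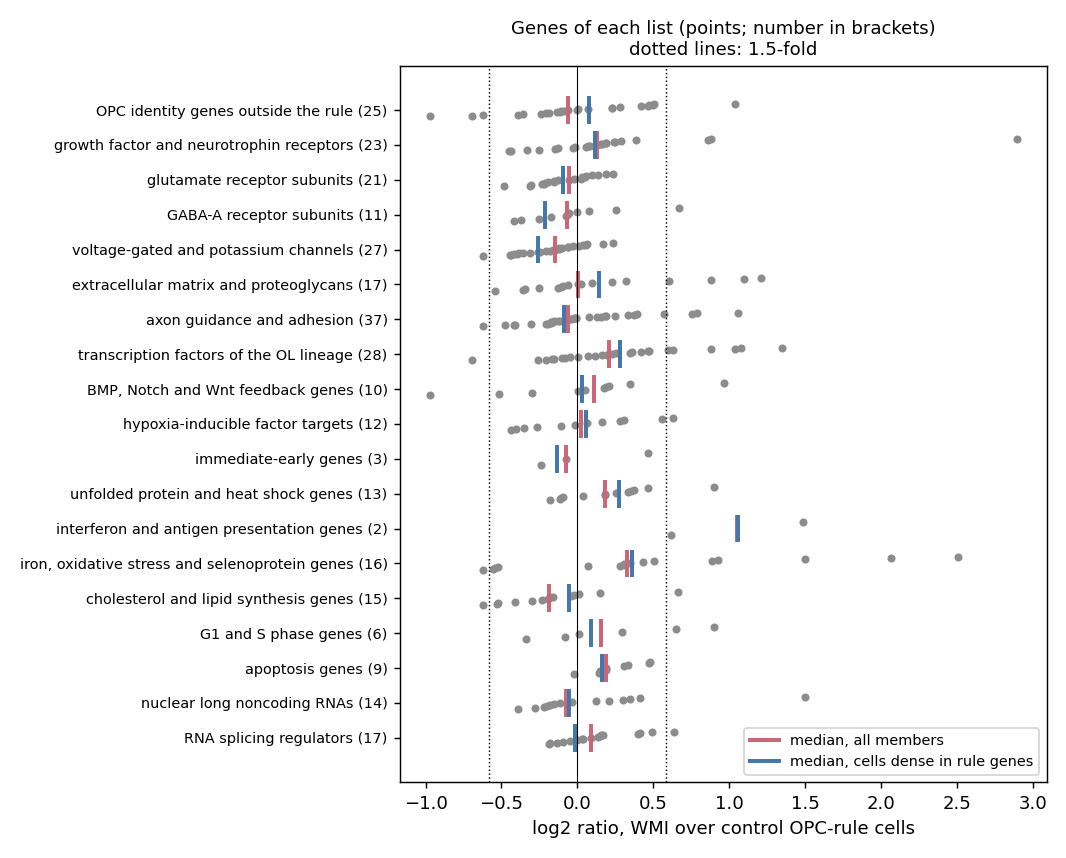
log2 ratio of WMI over control OPC-rule cells (horizontal axis) for the genes of 19 lists (grey points, number tested in brackets), with the list median in red and that of rule-dense OPCs in blue. Interferon and antigen presentation genes, with 2 tested, lie farthest right at 1.05, followed by iron and oxidative stress genes at 0.33, transcription factors at 0.21, apoptosis genes at 0.19 and unfolded protein genes at 0.18, and dotted lines mark 1.5-fold.

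Matrix and guidance genes were next. Of 17 extracellular matrix and proteoglycan genes 4 (23.5%, against 6.39% of all genes tested) were higher and none (against 2.33%) lower, with a median of 0.01. Tnr, the most abundant and a tenascin of perineuronal nets, stood at 3010 and 2793 CPM. Tnc, a tenascin of the developing and injured brain, had 31 and 133 UMIs (1.21, 0.64 to 1.83), Adamtsl1 113 and 448 (1.10, 0.80 to 1.41), the syndecan gene Sdc3 88 and 300 (0.88, 0.53 to 1.24) and the collagen gene Col11a1 192 and 541 (0.61, 0.37 to 0.85). The 4 were also past 1.5-fold in rule-dense OPCs, but without the members that held 3 or more premyelinating genes Col11a1 stood at -0.58, with no interval, and in excitatory neurons Sdc3 stood at 0.89, Adamtsl1 at 0.94, Tnc at 0.69 and Col11a1 at 0.17. Of 37 guidance and adhesion genes 3 (8.11%) were higher and 1 (2.7%, Sema3d) lower, near the 6.39% and 2.33% of all genes. Nrp2 and Nrp1, co-receptors of semaphorins, had log2 ratios of 1.06 and 0.79, and Plxnb3, a plexin receptor, of 0.75. Plxnb3 stood at 1.17 in rule-dense OPCs and at -0.27, with no interval, without the members that held 3 or more premyelinating genes. In rule-dense OPCs Nrp1 stood at 0.27, Nlgn3 was past 1.5-fold higher at 0.65 and Sema3c past it lower at -0.79. Of 10 feedback genes of Bmp, Notch and Wnt signals 1 (10%, against 6.39% of all genes) was higher and 1, Rnf43 (10%, against 2.33%), lower. Bmp4, a ligand that holds OPCs back from differentiation, had 64 and 232 UMIs (0.97, 0.56 to 1.39). In rule-dense OPCs without Xist it stood at 27.1 CPM (19.7 to 36.2) in control and 35.0 (22.7 to 51.7) in WMI, with intervals that overlapped. Znrf3, the relative of Rnf43 and the most abundant of the list, had a log2 ratio of 0.18 (-0.03 to 0.39).

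Stress and metabolic lists differed from one another. Of 16 iron, oxidative stress and selenoprotein genes 5 (31.3%, against 6.39% of all genes tested) were higher and 1 (6.25%, against 2.33%) lower, with a median of 0.33 in all members, 0.36 in rule-dense OPCs and -0.02 in excitatory neurons. The lower one was the transferrin receptor gene Tfrc, with 97 and 117 UMIs (-0.62, -1.02 to -0.21), which at -0.56 was not past 1.5-fold in rule-dense OPCs. The ferritin genes Ftl1 and Fth1 had 26 and 274 (2.51, 1.93 to 3.15) and 116 and 397 UMIs (0.89, 0.58 to 1.20). The selenium carrier Selenop had 29 and 225 UMIs (2.07, 1.51 to 2.68), the metallothionein gene Mt1 25 and 131 (1.5, 0.88 to 2.18) and the thioredoxin reductase gene Txnrd1 25 and 88 (0.93, 0.27 to 1.63). Excitatory neurons stood at 1.66 for Ftl1, 2.63 for Selenop, 0.58 for Mt1 and -0.15 for Txnrd1. Of 13 unfolded protein and heat shock genes 1 was higher (7.69%, near the 6.39% of all genes), the chaperone gene Hspa5, with 111 and 383 UMIs (0.90, 0.59 to 1.22) and 0.62 in neurons. Hsp90b1, the most abundant, stood at 0.46, and at 0.67 in rule-dense OPCs. Of 12 hypoxia-inducible factor targets 1 (8.33%, near the 6.39% of all genes) was higher, the glycolytic regulator Pfkfb4 with 43 and 123 UMIs (0.63, 0.12 to 1.16), and the median was 0.02. In rule-dense OPCs Pfkfb4 stood at 0.44, and Bnip3l, a mitophagy receptor gene, was the 1 past the threshold at 0.66. P4ha1, the most abundant, stood at 0.28. Of 15 cholesterol and lipid synthesis genes 1 (6.67%, near the 6.39% of all genes) was higher, the desaturase gene Scd2 (0.66, 0.42 to 0.91), and 1 (6.67%, against 2.33%) lower, the squalene synthase gene Fdft1 (-0.62, -1.12 to -0.11), which stood at -0.28 in rule-dense OPCs. Acaca, the most abundant, stood at -0.02. None of 9 apoptosis genes was past 1.5-fold, with a median of 0.19 and the most abundant, Birc6, at -0.02. Of 20 immediate-early genes 3 had enough UMIs, none past 1.5-fold, led by Nr4a1 at -0.24, and of 24 interferon and antigen presentation genes 2 had, both higher. These were B2m, the light chain of class I molecules, with 33 and 171 UMIs (1.48, 0.94 to 2.07) and 1.54 in neurons, and Stat2 with 38 and 108 (0.62, 0.07 to 1.19), which at 0.58 was not past 1.5-fold in rule-dense OPCs.

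Of 6 G1 and S phase genes tested, 2 (33.3%, against 6.39% of all genes tested) were higher, the cyclin genes Ccnd1 with 28 and 97 UMIs (0.90, 0.28 to 1.57) and Ccnd2 with 80 and 232 (0.65, 0.27 to 1.03), of which Ccnd2 stood at 0.25 in rule-dense OPCs. There Ccnd3 was past 1.5-fold lower, at -0.81, against -0.34 in all members. Rb1, the most abundant, stood at -0.08. The rule left out cells with 3 or more cycling genes, 27 control and 37 WMI barcodes with 4 or more rule genes. Of 14 nuclear long noncoding RNAs 1 (7.14%, near the 6.39% of all genes) was higher, Neat1, a scaffold of nuclear bodies, with 25 and 131 UMIs (1.5, 0.88 to 2.18) and 1.84 in neurons, and Malat1 stood at 27895 and 25133 CPM. Of 17 splicing regulators 1 (5.88%, also near that share) was higher, Mbnl1 (0.63, 0.43 to 0.84), with 0.38 in rule-dense OPCs, and Celf2, the most abundant, stood at -0.13.

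Among members of 1 library, the main axes of variation were also examined as a description. In control members the first principal component, 2.37% of the variance of 1000 variable genes, ran from Creb5, Reln, Sncaip and Ptpn13 to Epb41l2, Tcf7l2, St18, Enpp6 and Cd9, and across the 381 cells it had a correlation of -0.464 with the number of premyelinating genes detected. In WMI members the first component, 5.97%, had a correlation of -0.012 with the number of premyelinating genes. It ran from Enpp6, Ror1 and Tgfb2 to Mertk, Dock2, Rreb1, Lyn, Zfhx3, Inpp5d, Apbb1ip and Fyb. Of these, Dock2, Lyn, Inpp5d, Apbb1ip and Fyb are known from leukocytes, as is Pstpip2, which lay at the Enpp6 end. The second, 2.15%, ran from Pstpip2, Arhgef26 and Col19a1 to St18, Enpp6, Bmp4 and Plxnb3, with a correlation of -0.475 with the number of premyelinating genes across 689 cells. Such cells share their library, and Tcf7l2 and Enpp6 are themselves among the premyelinating genes counted. Correlations with the log10 of the UMIs of a cell were 0.0257 for the first control component. They were 0.0323 and -0.0172 for the first and second WMI components. The part of RNA from other cells in these components was not tested. Members with 3 or more premyelinating genes were 67.2% of control and 74.6% of WMI members. In them Sox10, which did not define the split, stood at 145 CPM in control and 84.2 in WMI, against 78.5 and 44.7 in the other members.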

How the data were processed

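The authors deposited 1 count table per library, made with Cell Ranger 6.1.1 per the file headers, that holds whole UMI counts per gene and barcode without normalization. The submitters' processing notes name Seurat and the build mm9, while all gene identifiers matched GENCODE M21 on GRCm38. Doublets were not removed in the main values. The whole tables held 66470806 UMIs in 10288 control barcodes (median 4180.5) and 60568639 in 8354 WMI barcodes (median 5089). Counting intervals rest on the UMIs of the cells summed. The members, the 19 compared lists and 12 marker lists, and the other rules were chosen with earlier results of these data known. UMIs were summed over members. Ratios carry conditional exact binomial intervals, levels Poisson intervals and shares Clopper-Pearson intervals, and intervals of share differences combine those of both shares by square-and-add. No test was run, since each group had 1 library.

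Classes beside the OPCs were set by marker counts: at least 4 of 8 premyelinating genes, over 5 UMIs of Mog, Mobp and Mag for mature OLs, at least 5 of 8 astrocyte genes, at least 4 of 8 microglia genes, and at least 3 Slc17a7 UMIs for excitatory neurons, each with limits on genes of other classes. Genes named are the 12 highest and 12 lowest by the interval limit nearest 0 (without predicted genes, mitochondrial, ribosomal protein and sex-linked genes), the most abundant of each list and up to 4 of its members past 1.5-fold with an interval that leaves out 0. Other genes named to complete a count were chosen after their values were seen, as were the genes with shares and splits. Shares were taken after thinning each cell to 1000 UMIs without replacement, by a random draw made apart for each set of cells. Python 3.11.15, numpy, scipy and scanpy were used, the last for doublet scores. On simulated data for 7966 genes, of which 200 were changed 2-fold, the intervals held the true ratio for 93.5% of changed and 95.5% of other genes, and 1.11% of the unchanged genes passed 1.5-fold. The simulated counts were Poisson, as the intervals assume, with no spread among cells or between libraries. They check the calculation only and give no error rate for the real ratios. Alternatives were other member rules, scalings and filters. A few genes that this rule would name are not reported here.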

Additional observations from a re-analysis of the deposited data

Results flagged for a closer look

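A result was picked for a closer look when the WMI over control ratio of a named gene passed 1.5-fold one way in OPCs and the other way in another cell class, with counting intervals that left out 0. The difference between classes was not tested in any of these cases. Ctnna3 had a log2 ratio of 1.08 in astrocytes (111 control and 227 WMI UMIs) and -0.80 in OPCs. Sox10 had 1.13 in microglia (7 and 63 UMIs), with an interval of 0.0025 to 2.50 that barely left out 0, and -0.70 in OPCs. Sema3d had 0.66 in mature OLs (79 and 105 UMIs) and 0.77 in excitatory neurons (135 and 202 UMIs), and -0.62 in OPCs. Tgfbr1 had -1.43 in microglia (1187 and 1818 UMIs) and 0.86 in OPCs.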

How the results depend on the processing

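Of 1350 values recomputed for 111 results under 18 settings, 1110 stayed within the counting interval or within 1.5 times the count, 235 moved and 5 changed sign. The settings based on rule-dense OPCs were chosen after seeing the data. The cause of each change was not tested. The share difference of 4.50 percentage points was 8.23 with 3 rule genes, 2.39 with 5, 2.46 with the rule on barcodes thinned to 2000 UMIs, 1.25 without members over 1% mitochondrial UMIs, 0.847 without members rich in premyelinating genes, 2.24 in rule-dense OPCs, -1.28 without Xist-positive members and -1.30 without them in rule-dense OPCs. Against 509 genes higher and 186 lower, 312 were lower with 5 rule genes, 342 with the thinned rule, 372 without Xist-positive members and 375 in rule-dense OPCs. Both counts moved to 1058 and 533 without premyelinating-rich members, 805 and 681 in rule-dense OPCs without Xist, 981 and 414 at 50 UMIs, 235 and 72 at 200 UMIs, and 3360 and 3463 with 1 UMI in each library. Without premyelinating-rich members the median of immediate-early genes was -0.37 and of interferon genes 0.50, and Col11a1 stood at -0.58, Plxnb3 at -0.27 and St18 at -0.45, values with no interval from 125 control and 175 WMI cells that were chosen by genes that differed between the libraries. The apoptosis median was 0.14 with the thinned rule and 0.14 when centred. Unthinned share differences were 14.2 points for Tcf7l2, 9.90 for Nkx2-2, 19.9 for Gpr17 and -17.9 for Sox10, and at 2000 UMIs 12.8 for Gpr17 and -8.50 for Sox10. In excitatory neurons the unthinned differences were 12.3 points for Tcf7l2, 2.15 for Nkx2-2, 8.87 for Gpr17 and 2.36 for Sox10. Leaving out the barcodes with the highest doublet scores removed 52 control and 73 WMI members. No paired analysis was possible because each group had 1 library, and depth limits genes under about 100 UMIs.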
